A study of Homo sapiens with 2 samples.

Results

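The miRNAs described here are the 5p arms of the hairpins numbered miR-6726 to miR-6895, a block of catalogue entries made up largely of human mirtrons. Members were taken by name alone, as every probe called hsa-miR-N-5p in which N is a whole number from 6726 to 6895 with no letter after it. This gave 163 of the 2565 miRNA probes on the array. The remaining 7 of the 170 numbers in the block had no such probe, being on the array with a letter in the name, with no arm in the name or, for miR-6843, as the 3p arm alone. The prefix hsa- is left out below.

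The cells were 22Rv1, a human prostate cancer line, grown in RPMI1640. One group was untreated, the control of the study, and the other received 25 µM luteolin, a plant flavone, and both were collected at 48 h. From each, 250 ng of total RNA was labelled with Cy5 and read in 1 colour on 1 Toray 3D-Gene array, on which every miRNA probe had 1 spot. With 1 array per condition no test between the conditions was possible, no p-value is given, and a difference between the arrays cannot be told apart from a difference between the conditions.

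A mirtron is a short intron that folds into a hairpin and is released by splicing, not by the nuclease Drosha that cuts most miRNA precursors. After the lariat is opened, Dicer cuts the hairpin into a 5p and a 3p arm as it does for other miRNAs. Spliceosomal introns begin with GU and end with AG, so a conventional mirtron carries both at its ends. In a tailed mirtron only one end of the hairpin lies at a splice site and the rest of the intron is trimmed by other nucleases. The bases 2 to 8 of a mature miRNA, its seed, pair with target mRNAs and largely set which mRNAs are repressed.

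Sequences came from RefSeq on GRCh38.p14, whose table held 139 of the 163 members. It held hairpins for 131. The name mirtron was set against the ends of those hairpins, and 3 are printed because they differ there. The first and last pair of bases are in capitals, the sequences read 5′ to 3′, and the coordinates are those of the hairpin.

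miR-6807, chr19:58550285-58550376, plus strand, within TRIM28: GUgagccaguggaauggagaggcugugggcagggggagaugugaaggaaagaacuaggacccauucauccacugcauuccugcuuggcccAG
miR-6822, chr3:39138206-39138266, plus strand, within TTC21A: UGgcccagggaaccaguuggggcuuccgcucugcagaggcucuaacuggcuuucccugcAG
miR-6869, chr20:1392900-1392961, minus strand, within FKBP1A: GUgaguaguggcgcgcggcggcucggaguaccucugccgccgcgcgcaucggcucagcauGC

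The hairpin of miR-6807 had both the GU start and the AG end, that of miR-6822 only the AG, and that of miR-6869 only the GU. Of the 131 hairpins, 125 (95.4%) ended in AG, against 138 of 1429 other human hairpins in the table (9.66%). A GU start was present in 16 (12.2%), against 7.98% of the others, and both ends together in 12 (9.16%), against 1.68%. In 119 of the 131 the 5p arm began 5 bases into the hairpin, so the first bases of most entries are a short flank and not the 5p arm itself. Whether the last bases, where the AG lies, belong to the other arm was not measured. The hairpins had a median length of 66 nt, from 56 to 164 nt, and the other hairpins had a median of 81 nt. By position, 129 of the 131 (98.5%) lay inside the span of a protein-coding gene, 110 of them on its strand, while the strand of the surrounding gene was not in the table for 18. Exon and intron boundaries were not used here, so whether each hairpin is a spliced intron was not checked. The members lay on 19 chromosomes, with 21 on chromosome 19 and 17 on chromosome 1.

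The mature 5p arms shared a composition that the choice by name did not use. The arms below are those that the results turn on, with the seed in capitals. They are the brightest member, the members with the 5 highest and 2 lowest luteolin over control ratios among those with firm signal, 2 members that share a seed with one of these, and 1 member with the seed of the miR-15/16 family.

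miR-6822-5p, chr3:39138211-39138230, plus strand: cAGGGAACcaguuggggcuu
miR-6750-5p, chr11:64898409-64898432, minus strand: cAGGGAACagcugggugagcugcu
miR-6777-5p, chr17:17813518-17813540, minus strand: aCGGGGAGucaggcaguggugga
miR-6889-5p, chr22:41253023-41253045, minus strand: uCGGGGAGucugggguccggaau
miR-6826-5p, chr3:129272151-129272173, plus strand: uCAAUAGGaaagaggugggaccu
miR-6741-5p, chr1:225922116-225922137, minus strand: gUGGGUGCuggugggagccgug
miR-6782-5p, chr17:44207810-44207834, minus strand: uAGGGGUGggggaauucaggggugu
miR-6808-5p, chr1:1339682-1339703, minus strand: cAGGCAGGgaggugggaccaug
miR-6868-5p, chr17:76098050-76098071, minus strand: aCUGGCAGaacacugaagcagc
miR-6743-5p, chr11:209341-209362, plus strand: aAGGGGCAgggacggguggccc
miR-6838-5p, chr7:44073407-44073428, minus strand: aAGCAGCAguggcaagacuccu

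The median member was 50% G, against 26.1% for the other miRNA probes with a sequence and 14.3% for the 3p arms of the same block. The 3p arms were instead rich in C, with a median of 45.5%. The total GC content of both arms was therefore alike, with medians of 61.9% for the 5p arms and 60.9% for the 3p arms, and above the 50% of the other miRNAs. A run of 4 G was present in 66 of the 139 members (47.5%), in 9.60% of the other miRNAs and in 0.690% of the 3p arms. The seed itself held 3 G in a row in 91 members (65.5%), as in miR-6822-5p and miR-6777-5p above, against 12.6% of the other miRNAs and 1.38% of the 3p arms. The members were 19 to 25 nt long, with a median of 22 nt. Even so, the seeds were mostly distinct, with 130 different seeds among the 139 members. Of these seeds, 8 were held by more than 1 member, 17 members in all, and the most common, UGGGGUG, was held by miR-6737-5p, miR-6812-5p and miR-6819-5p. The seed of 83 members was on no other probe with a sequence.

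Detection was judged against the blank and Negative Control spots of the same array. The blank spots, 320 per array, had a mean of 81.0 units untreated and 66.2 with luteolin after trimming 5% at each end, with SDs of 1.48 and 0.591. Signals over this mean by more than 2 SD, 84.0 and 67.3 units, counted as detected, the rule that the authors' own listing follows. It is a low bar, only 2.97 and 1.18 units above the blank mean. Of the untrimmed blank spots, 22 on each array (6.88%) passed it. The sources used here do not say what the Negative Control and spike-in spots hold, and both were used by name. Of the 32 Negative Control spots, 17 (53.1%) passed the limit on each array.

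The Negative Control probes differed among themselves. Negative Control 1, with 16 spots, averaged 88.2 ± 2.68 units (SD) on the untreated array and 68.2 ± 0.778 on the luteolin array, and 15 and 12 of its spots passed the limit. Negative Control 2, with 8 spots, had 0 above it on either array, and Negative Control 3 had 2 and 5 of 8. A second, stricter limit was therefore used, here called the floor, which is the highest Negative Control spot of each array, at 93.7 and 69.4 units. On the untreated array 0 of the blank spots passed it and on the luteolin array 2. Of 85 spots that the tables name as having no probe, 4 passed it on each array, the highest at 175 and 179 units, so signals of this size were also given by spots with no named probe.

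Many of the 5p arms lay just around these limits, and more of them passed than of the array as a whole. On the untreated array 78 of the 163 members (47.9%) were detected, against 31.6% of all miRNA probes. On the luteolin array 103 members (63.2%) were detected, against 38.4%. Both arrays detected 74 members (45.4%), against 27.3%. Of the 3p arms of the same block, 32 of 164 (19.5%) were detected on both, below the share of all probes. On the untreated array 39 (23.8%) were, also below it. On the luteolin array 77 (47.0%) were, above the 38.4% of all probes.

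Above the floor the 5p arms were again ahead of the array as a whole, and the 3p arms were behind it. On the untreated array 34 members (20.9%) passed the stricter limit, against 12.1% of all probes, and the same 34 passed on both arrays, where the share of all probes was again 12.1%. On the luteolin array 67 members (41.1%) passed, against 23.1%. Of the 3p arms, 9 (5.49%) passed on both. No test was run of these differences between groups of probes, and probes of like composition are not independent of each other.

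Many members gave no usable level, though fewer than on the array as a whole. Neither array detected 56 members (34.4%), against 57.3% of all probes, and 96 (58.9%) were below the floor on both, against 76.9%. On the luteolin array alone 29 members (17.8%) were detected, against 11% of all probes. On the untreated array alone 4 (2.45%) were, against 4.29%, namely miR-6730-5p, miR-6806-5p, miR-6856-5p and miR-6887-5p, named after their values were seen. The limit lay lower and the blank spots varied less on the luteolin array, so passing it there took less signal. This difference moves with the count, and its part in the count was not tested.

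The limits cut through a dense range of signals. The raw signals of the members ran from 76.9 to 1086 units on the untreated array, with a median of 83.8, a fraction of a unit below the limit. On the luteolin array they ran from 64.7 to 824 units, with a median of 68.3. On the untreated array miR-6807-5p at 84.0 units and miR-6806-5p at 84.1 were just inside the blank limit, and miR-6825-5p and miR-6839-5p, both at 83.9, were just outside. On the luteolin array miR-6871-5p and miR-6829-5p, at 67.3 and 67.4 units, were just inside, and miR-6810-5p and miR-6856-5p, both at 67.3, were just outside. Members on either side of a limit therefore differed by less than 1 SD of the blank spots.

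**Figure D1:**
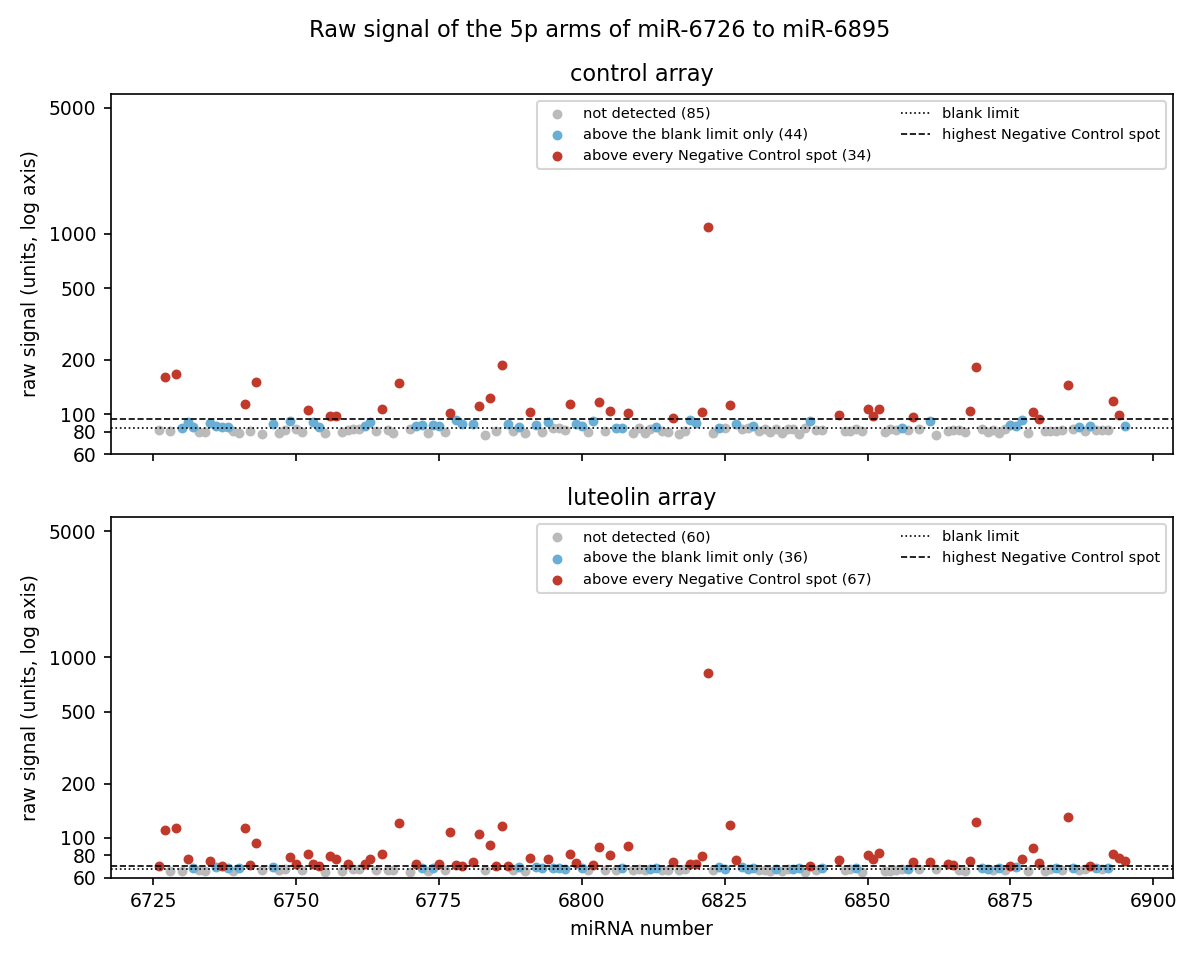
Raw signal in units (log axis) of the 163 members on the untreated array (upper panel, titled control) and the luteolin array (lower panel), ordered by miRNA number. Dotted lines are the blank limit, 84.0 and 67.3 units, and dashed lines the highest Negative Control spot, 93.7 and 69.4 units; grey points are not detected, blue points pass the blank limit only and red points pass both, 34 untreated and 67 with luteolin, and miR-6822-5p stands alone above the rest.

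Detection moved with the GC content of the arm. Among the 139 members with a sequence, 3 of the 47 with the lowest GC content (36.4% to 58.3%) were detected on both arrays, or 6.38%. Of the 46 in the middle (59.1% to 65.0%) 20 were detected, or 43.5%, and of the 46 with the highest GC content (65.2% to 87.5%) 42 were, or 91.3%. Above the floor on both arrays the counts were 2, 7 and 19, or 4.26%, 15.2% and 41.3%. Of the other miRNAs in the same ranges 7.11%, 12.6% and 28.8% were above it.

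The other probes showed the same order over the same ranges of GC, from 220 of 1448 in the lowest through 116 of 326 to 206 of 340 (60.6%) in the highest. The 3p arms went from 3 of 59 through 8 of 45 to 16 of 41 (39.0%). At the highest GC content the 5p arms were thus detected more often than their 3p arms or other miRNAs, and at the lowest less often than other miRNAs (15.2%). The difference between the sets was not tested, and the points share 2 arrays and their base composition.

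A run of 4 G went with detection in part. Of the members with such a run 40 of 66 (60.6%) were detected on both arrays, and of those without one 25 of 73 (34.2%). Within the highest range of GC content the counts were 33 of 34 with the run and 9 of 12 without, but within the middle range the order was turned, with 7 of 24 and 13 of 22. In the lowest range 0 of 8 with the run and 3 of 39 without were detected. Probe sequences were not used here, and how far composition sets the brightness of a spot in the absence of its miRNA was not tested.

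**Figure D2:**
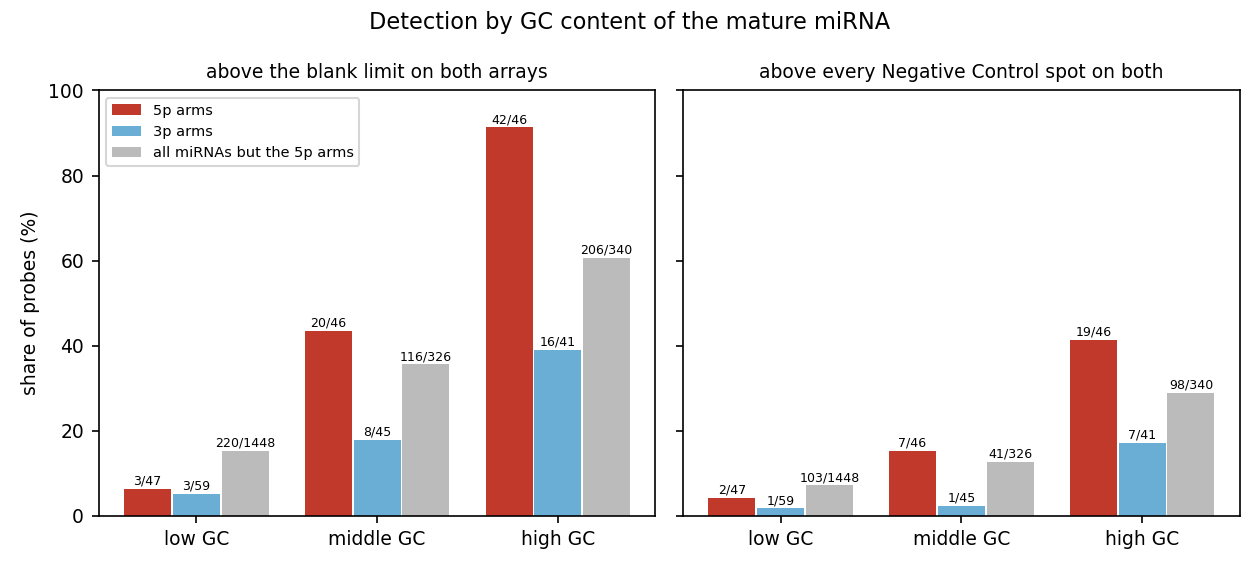
Share of probes, in percent, above the blank limit (left) and above the floor (right) on both arrays, in 3 ranges of GC content, for the 5p arms of miR-6726 to miR-6895 (red), the 3p arms of the same block (blue) and all miRNAs but the 5p arms (grey), with the counts over the bars. On the left the 5p arms go from 6.38% in the lowest range to 91.3% in the highest, the 3p arms end at 39.0% and the other miRNAs at 60.6%.

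Because brightness depends on the sequence of the probe as well as on the RNA, the signal of 1 probe is not set against that of another as an abundance, and levels are compared for each miRNA between the arrays. Levels below are on the scale of the authors' deposited values, which are signals after subtraction of the blank mean, scaled so that the luteolin over control ratio has a median of 1 over the 701 miRNAs detected on both arrays. A log2 ratio of 0 therefore means a ratio like that of the median miRNA. The sign ± gives the standard error from repeated spots within an array, which leaves out variation between cultures and arrays, and for dim spots may understate even the error between spots. The RNA was bulk RNA, so a higher level in each cell and more cells with the miRNA cannot be told apart.

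As a check of the cell type, 4 of 4 miRNAs of prostate epithelium (miR-141-3p, miR-200c-3p, miR-200b-3p and miR-375) were above the floor on both arrays. Markers of muscle and stroma had 0 of 5 above it, those of blood and endothelium 1 of 5 (miR-451a) and those of liver and nerve 1 of 3 (miR-9-5p). Levels on the authors' scale were 39.8 and 22.1 for miR-451a on the control and luteolin arrays, and 52.6 and 155 for miR-9-5p.

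The 74 members detected on both arrays had ratios spread around that of the median miRNA. Their mean log2 ratio was 0.00 and their median -0.13, with an interquartile range from -0.40 to 0.47, and the median of all 701 miRNAs detected on both is 0 by construction. On this scale 28 members had a ratio above 0, 45 below and 1 at 0, against 350 above and 350 below among the 701. At least 2-fold higher with luteolin were 4 of the 74 (5.41%), against 13.4% of all miRNAs detected on both. At least 2-fold lower were 0 of 74, against 5.14% of all. The count of 2-fold higher members ran from 0 to 23 and that of 2-fold lower members from 0 to 19 over the other scalings. Among all miRNAs detected on both, the counts ran from 1 to 253 and from 0 to 165. Of the scalings 1, without any scaling, gave the members a median of -0.74 and another, scaled to the spike-in control, 0.60.

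The 34 members above the floor on both arrays rest on firmer signal. Their levels ran from 40.3 to 3049 on the untreated array, with a median of 78.9, and from 27.8 to 3511 on the luteolin array, with a median of 72.9. Their mean log2 ratio was 0.01 and their median -0.14, with an interquartile range from -0.34 to 0.25, and that of all 310 miRNAs above the floor was 0.04. Of the 34, 3 (8.82%) were at least 2-fold higher with luteolin, against 18.4% of the 310, and 0 were at least 2-fold lower, against 0.645%. The standard errors ran from 0.14 to 0.26. More than 2 standard errors above 0 lay 8 members (23.5%), against 34.8% of the 310, and below 0 lay 7 (20.6%), against 21.6%, with 19 between.

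Which side of 0 the group fell on was set by the scaling. On the authors' scale 10 of the 34 were above 0 and 24 below, against 162 and 148 of the 310. With each array scaled to its own median the members had a median of 0.18, with 25 of 34 above 0. With scaling to the spike-in control 32 of 34 were above 0. Under these scalings the median of the 310 was 0.36 and 0.77. Those scalings shift all miRNAs together, by 0.32 and 0.73 on the log2 scale. Relative to the 310 miRNAs above the floor, the median of the members was 0.18 lower under the authors' scale (a difference of -0.18). Every other scaling of the blank-subtracted signals gives the same difference by construction, as it changes 1 factor per array. With normexp background correction and quantile normalization the difference was -0.01 at an offset of 50 and -0.03 at 16. After subtraction of the Negative Control mean in place of the blank mean it was -0.16.

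**Figure D3:**
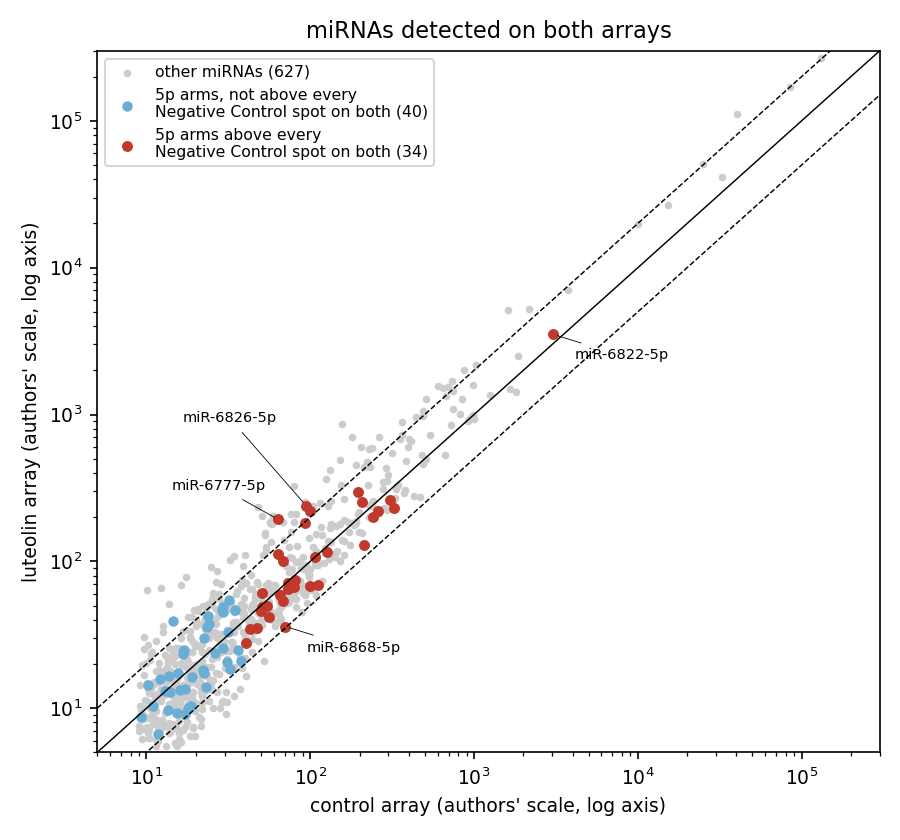
Level on the luteolin array against level on the untreated array, in units of the authors' scale on log axes, for the miRNAs detected on both arrays. The 74 members are drawn over the other miRNAs (grey), red above the floor on both arrays and blue otherwise, with a solid line at equal levels and dashed lines at 2-fold differences; 3 red members and 1 blue member lie above the upper dashed line and 0 below the lower.

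The brightest spot of the block was miR-6822-5p (MIMAT0027544), from a hairpin inside TTC21A, a gene for a protein of cilia. Its raw signal was 1086 units untreated and 824 with luteolin, and on the authors' scale its level was 3049 and 3511. No other member was near it, the next being miR-6786-5p at 326 on the untreated array and miR-6885-5p at 298 on the luteolin array. Its log2 ratio was 0.20 ± 0.14, within 2 standard errors of 0. The ratio was -0.60 with normexp at an offset of 50 and 0.94 with spike-in scaling, so its direction was not settled by these data. The 3p arm of the same hairpin was not detected, at 81.1 and 66.0 raw units. The arm of miR-6750-5p, which has the same seed AGGGAAC, gave 83.2 and 71.4 raw units and was detected on the luteolin array alone.

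With signal above the floor on both arrays, 3 members were at least 2-fold higher after luteolin. The first, miR-6777-5p (MIMAT0027454), lies within SREBF1, the gene of a transcription factor that drives sterol and fatty acid synthesis. Its raw signal was 102 units untreated and 108 with luteolin, against blank means of 81.0 and 66.2. The level was 63.9 and 193, 3.02-fold higher on the luteolin array, a log2 ratio of 1.59 ± 0.17. Its 3p arm had 22.5 and 18.9, a log2 ratio of -0.25 ± 0.38, so the arms differed by -1.85 ± 0.42 (3p minus 5p), although the 3p arm was below the floor on the untreated array. A second member with the same seed CGGGGAG, miR-6889-5p from within RANGAP1, had levels of 15.6 and 17.4 and a ratio of 0.16 ± 0.49.

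The second was miR-6826-5p (MIMAT0027552), within COPG1, which encodes a subunit of the coat of COPI transport vesicles. Its raw signal was 112 and 118 units, and its level 94.1 untreated and 240 with luteolin. The ratio was 2.55-fold, or 1.35 ± 0.16 on the log2 scale. It is unlike most of the block in sequence, with a GC content of 47.8% and a seed, CAAUAGG, without 3 G in a row. It was 1 of only 2 members of the lowest range of GC content above the floor on both arrays.

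The third was miR-6741-5p (MIMAT0027383), with a raw signal of 114 units on both arrays. Its level was 100 untreated and 221 with luteolin, 2.21-fold higher, a log2 ratio of 1.14 ± 0.15. All 3 kept a positive ratio under each of the other scalings, in which miR-6777-5p ran from 0.48 to 2.33, miR-6826-5p from 0.46 to 2.09 and miR-6741-5p from 0.34 to 1.88. None of the 3 reached 2-fold with normexp at either offset or without scaling. Few of the 701 miRNAs detected on both did so there: 1 at an offset of 50, 4 at 16 and 22 without scaling. The shortfall is therefore not particular to these members. After subtraction of the Negative Control mean miR-6741-5p was also short of 2-fold, at a log2 ratio of 0.84. The member miR-6895-5p had 14.5 and 39.4 and a log2 ratio of 1.44 ± 0.48, but lay below the floor on the untreated array. Set against that floor, its luteolin level was at least 1.02-fold higher.

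The next members in order were smaller in ratio. The level of miR-6782-5p, within the gene of the ribosomal RNA transcription factor UBTF, was 93.1 and 182, a log2 ratio of 0.97 ± 0.16. That of miR-6808-5p, within DVL1, whose product relays Wnt signals, was 63.5 and 112, a ratio of 0.82 ± 0.18. That of miR-6885-5p, within GTF2F1, which encodes a subunit of the general transcription factor TFIIF, was 196 and 298, a ratio of 0.60 ± 0.14. These ratios form a series without a gap, and neighbours in it differ by less than 2 standard errors. With the first 3, miR-6782-5p and miR-6808-5p are the only members of the 34 with a higher blank-subtracted signal on the luteolin array before any scaling, and these 5 were positive under all 8 scalings. For miR-6885-5p the unscaled ratio was -0.01.

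At the other end no member reached 2-fold. The lowest ratio was that of miR-6868-5p (MIMAT0027636), within EXOC7, a gene of the exocyst that tethers secretory vesicles. Its raw signal was 104 units untreated and 73.9 with luteolin, and its level 70.6 and 36.0, a log2 ratio of -0.97 ± 0.20. The level of miR-6743-5p (MIMAT0027387), within RIC8A, a chaperone of G protein alpha subunits, was 214 and 128, a ratio of -0.74 ± 0.15. These 2 were the only members of the 34 below 0 under all 8 scalings, miR-6743-5p with a value that rounds to 0 under spike-in scaling.

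The rest of the lowest 6 had smaller differences. The level of miR-6893-5p was 112 and 69.5, a log2 ratio of -0.68 ± 0.16. That of miR-6798-5p, within RUVBL2, which encodes an ATPase of chromatin remodelling complexes, was 99.7 and 68.3, a ratio of -0.55 ± 0.16. That of miR-6880-5p was 40.3 and 27.8, a ratio of -0.54 ± 0.26. That of miR-6786-5p, within HGS, a gene of endosomal sorting, was 326 and 233, a ratio of -0.49 ± 0.14. With normexp the choice of the lowest 6 changed more than that of the highest 6. At an offset of 50, 2 of the lowest 6 and 6 of the highest 6 were the same members, and at 16, 3 and 6. After subtraction of the Negative Control mean 6 of the lowest 6 and 5 of the highest 6 were the same.

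**Figure D4:**
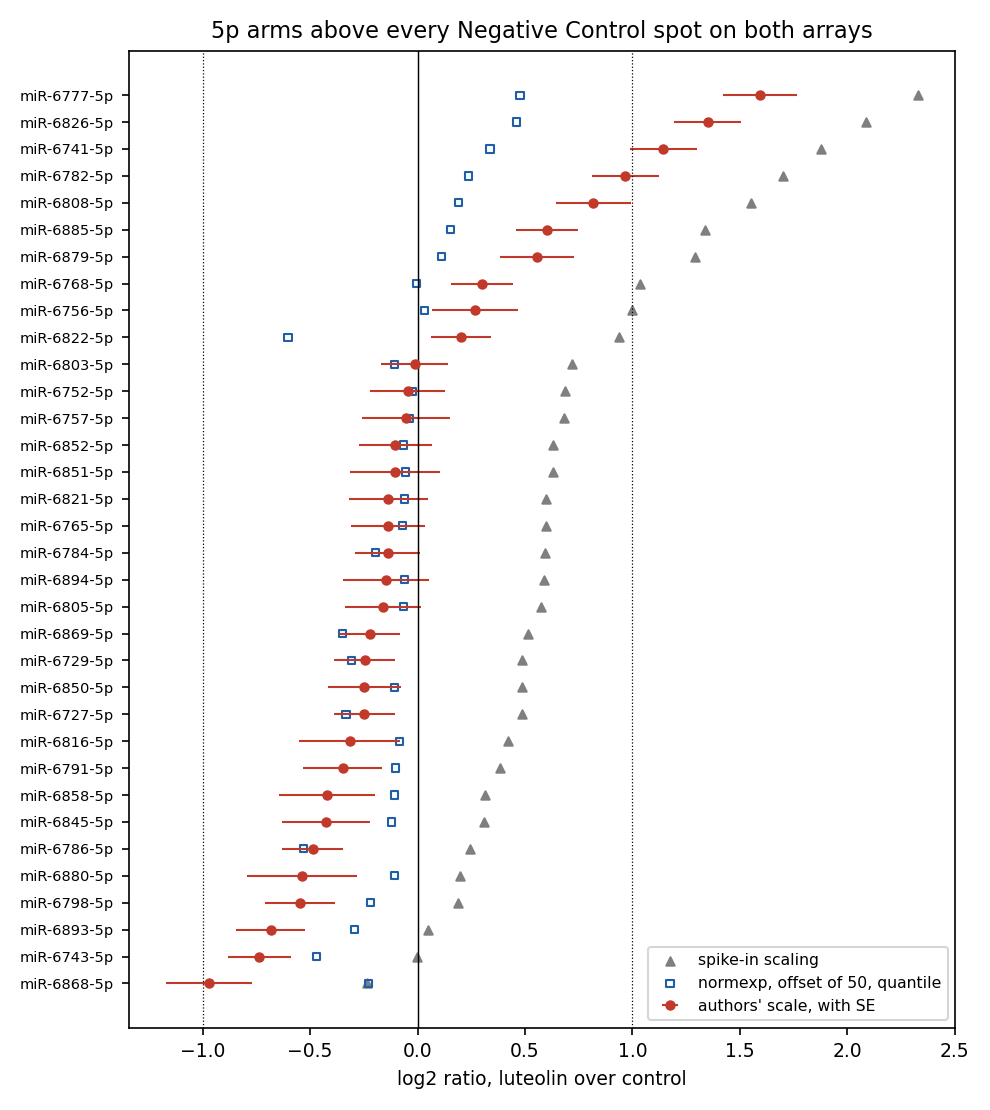
Log2 ratio of luteolin over control on the authors' scale for the 34 members above the floor on both arrays, in order of the ratio (red, with bars of 1 standard error from repeated spots within an array), and the same ratios with normexp at an offset of 50 (blue squares) and with spike-in scaling (grey triangles). Dotted lines mark 2-fold differences. The red points run from -0.97 for miR-6868-5p to 1.59 for miR-6777-5p. Above 0 are 10 members and below it 24, against 162 and 148 of the 310 miRNAs above the floor.

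Other bright members differed little between the arrays. The level of miR-6869-5p, whose hairpin is shown above and whose arm begins at the GU, was 307 untreated and 264 with luteolin, a log2 ratio of -0.22 ± 0.14. Those of miR-6729-5p, within MIIP, were 260 and 220, and those of miR-6727-5p, within INTS11, which encodes the RNA-cutting subunit of the Integrator complex, were 240 and 202. Both had a log2 ratio of -0.25 ± 0.14. All 3 lay within 2 standard errors of 0, as did miR-6784-5p, within PLCD3, at 127 and 115 (-0.14 ± 0.15).

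The level of miR-6768-5p was 207 and 255, a log2 ratio of 0.30 ± 0.14, just past 2 standard errors. In all, 11 of the 163 members had a level of 100 or more on both arrays. The matching count over all miRNA probes was not taken, so this count is not set against the array.

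On the untreated array alone, 0 members and 0 of all 2565 probes were above the floor. On the authors' scale the floor lay at 38.7 on the untreated array and at 14.9 on the luteolin array. On the luteolin array alone, 33 members (20.2%) were above it, against 11% of all probes. For these the control level has an upper bound, the floor, and the luteolin level over it gives a lower bound for the ratio. The bound was above 1 for 7 members (21.2%), against 19.9% of the 282 miRNAs above the floor on the luteolin array alone, and at least 2-fold for 0 of the 33, against 1.77% of the 282. The highest was that of miR-6749-5p, with raw signals of 91.5 and 78.0 units, at least 1.42-fold higher on luteolin. It was followed by miR-6763-5p, at least 1.26-fold, miR-6877-5p and miR-6731-5p, each at least 1.20-fold, and miR-6794-5p, at least 1.16-fold. The bounds use the authors' scaling and leave out the spot error of the luteolin signal.

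The 5p arm was the arm more often detected. Of the 163 hairpins with a probe for each arm, 54 had only the 5p arm detected on both arrays, 12 only the 3p arm, 20 both and 77 neither. Above the floor on both arrays the counts were 31, 6, 3 and 123. As the arms differ in G and C content and the probes in sequence, the arm present in greater amount cannot be read from these counts.

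The 3 hairpins with both arms above the floor were miR-6765, miR-6805 and miR-6816. In miR-6765, within the Notch ligand gene JAG2, the 5p arm had levels of 78.1 and 71.0, a log2 ratio of -0.14 ± 0.17, and the 3p arm 2159 and 5217, a ratio of 1.27 ± 0.14. The arms of this hairpin differed by 1.41 ± 0.22 on the log2 scale (3p minus 5p), a difference that no scaling by 1 factor per array alters. In miR-6805, within the ribosomal protein gene RPL28, the difference was 0.02 ± 0.27, and in miR-6816, within TRMT2A, which encodes a tRNA methyltransferase, -0.24 ± 0.31. The arms of the last 2 hairpins differed by less than 2 standard errors.

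Members that share a seed with a miRNA outside the block could be set beside it in 6 pairs above the floor. In 5 of the 6 the log2 ratios differed by less than 2 standard errors, among them miR-6808-5p and miR-940 (0.50 ± 0.29, member minus other) and miR-6743-5p and miR-4688 (-0.42 ± 0.21). The remaining pair was miR-6885-5p and miR-328-5p, which share the seed GGGGGGC and are shown here because their ratios lay on opposite sides of 0.

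miR-6885-5p, chr19:6389674-6389698, minus strand: aGGGGGGCacugcgcaagcaaagcc
miR-328-5p, chr16:67202367-67202389, minus strand: gGGGGGGCaggaggggcucaggg

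The level of miR-328-5p was 152 untreated and 100 with luteolin, a log2 ratio of -0.60 ± 0.15, and the pair differed by 1.21 ± 0.21. A shared seed thus went with different ratios in this pair.

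One member, miR-6838-5p, from within the DNA polymerase gene POLM, has the seed of the miR-15/16 family, which represses cell cycle and survival genes. Its seed AGCAGCA is that of miR-16-5p, shown for comparison.

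miR-16-5p, chr3:160404754-160404775, plus strand: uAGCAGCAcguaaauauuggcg

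The raw signal of miR-6838-5p was 78.0 units on the untreated array, below the blank mean, and 68.4 on the luteolin array, above the blank limit and below the floor. Of the 6 other probes with this seed, 5 were above the floor on both arrays, miR-16-5p at 646 and 1506 with a log2 ratio of 1.22 ± 0.14 and miR-15a-5p at 68.6 and 186 with 1.44 ± 0.17. The log2 ratios of miR-497-5p, miR-195-5p and miR-15b-5p were 1.10 ± 0.19, 0.95 ± 0.15 and 0.34 ± 0.15. The remaining probe, miR-424-5p, gave 83.8 raw units untreated, just under the blank limit, and 72.2 with luteolin, and has no ratio. No ratio could be given for miR-6838-5p, so it cannot be placed among them.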

How the data were processed

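The deposited tables hold spot intensity on a linear scale. Per the file headers, the authors gave raw signals, background-subtracted and globally normalized intensity, and for the luteolin array an adjusted column. From the values, the authors subtracted the trimmed mean of the blank spots and multiplied by 3.03 on the untreated array and by 4.63, an adjustment of 0.803 included, on the luteolin array. The sources used here do not give the basis of the adjustment or the scanner. The summary table, also deposited as intensity, matched these values for 2565 of 2565 miRNAs on both arrays.

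Members, lists and the main scale were chosen with earlier results of these data known. Standard errors combined the SD of blank spots with the spread of repeated spots of 5 bright control probes (coefficients of variation 7.34% and 6.23%), in Python 3.11.15 with numpy 2.4.6, pandas 2.3.3 and matplotlib 3.10.9. The alternative with normexp used limma 3.58.1 in R 4.3.3, at offsets of 50 and 16. Named were the 10 brightest members of each array, the 6 highest and lowest ratios above the Negative Control floor, up to 5 bounds, 2 members on each side of each limit, and members sharing a seed with chosen families, with 3p arms beside them. Others were named after their values were seen. As a check of the computation only, the steps for detection and ratios were tested on simulated data with known ratios. The number of arrays limits the precision.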

Additional observations from a re-analysis of the deposited data

How the results depend on the processing

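No paired analysis was possible because each condition had 1 array. Detection varied little among limits set from the blank spots: 69 to 78 members on the untreated array, 92 to 103 on the luteolin array and 68 to 74 on both. It fell to 34, 67 and 34 members at the Negative Control floor. Other ways to set that floor gave 31 to 34 members on both arrays. Ratios depended on scaling. The counts of all miRNAs detected on both arrays are given in brackets. Among members detected on both arrays, 4 (94) were at least 2-fold higher. The count was 0 (1) with normexp at an offset of 50, 0 (4) at 16 and 0 (22) without scaling. It was 9 (144) with median scaling, 8 (135) with 75th percentile scaling and 23 (253) with spike-in scaling. After subtracting the Negative Control mean, where 70 of the 74 members had a value, it was 12 (132). At least 2-fold lower were 0 (36), but 19 (165) without scaling and 5 (65) after subtracting the Negative Control mean. The median of these members, -0.13, became 0.19 with median scaling, -0.74 without scaling and 0.60 with spike-in scaling. Among members above the Negative Control floor, 3 (8.82%) were at least 2-fold higher, against 18.4% of the 310 miRNAs above it. Matching counts of the 310 under the other scalings were not taken. The count of members was 0 with normexp at either offset and 0 without scaling. It was 5 with median scaling, 5 with 75th percentile scaling and 8 with spike-in scaling. Of these members 0 were lower, but 8 without scaling and 3 after subtracting the Negative Control mean. Their median of -0.14 became 0.18 with median scaling, 0.11 with 75th percentile scaling, -0.75 without scaling, 0.60 with spike-in scaling and -0.45 after subtracting the Negative Control mean. Means in place of medians were 0.00 and 0.01 for these sets. Median, 75th percentile, spike-in and no scaling differ from the authors' scale by 1 factor per array, so they shift all miRNAs alike. The normexp and Negative Control settings also change the background. Which scaling is right was not tested. Of 24 named members with a ratio, 11 kept their sign under every scaling and 15 under all but the spike-in. Signals a few units above the blank spots limit the ratios: the 40 members detected on both arrays but not above the Negative Control floor had standard errors from 0.25 to 0.84.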

Other observations

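Of the 4 probes of the block with a letter in the name, miR-6780b-5p was above the Negative Control floor on both arrays, with levels of 144 and 175 and a log2 ratio of 0.28 ± 0.15. The level of miR-6769a-5p was 20.5 untreated and 46.0 with luteolin, a ratio of 1.17 ± 0.36, and that of miR-6769b-5p 13.0 and 18.2, a ratio of 0.48 ± 0.56. The signal of miR-6780a-5p was 82.5 and 66.5 raw units, below the limit on both arrays. Of the 4 probes of the block with no arm in the name, miR-6860 was detected, at 42.1 and 37.9 with a ratio of -0.15 ± 0.23, and miR-6745, miR-6844 and miR-6863 were not.

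Classical mirtrons, among the first described in mammals, were represented by 24 probes of miR-877 and the miR-1224 to miR-1238 numbers. Both arrays detected 13 of them (54.2%), against 45.4% of the members and 27.3% of all probes. Above the Negative Control floor on both were 5 (20.8%), against 20.9% of the members and 12.1% of all probes. A higher share than that of the array was thus not particular to the members. The 5 had a median log2 ratio of -0.18. These were both arms of miR-1228 and the 5p arms of miR-1227, miR-1233 and miR-1237. The level of miR-1233-5p was 467 untreated and 274 with luteolin, a ratio of -0.77 ± 0.14, and those of the other 4 had ratios from -0.23 to 0.07.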
